A study of Mus musculus with 6 samples.

Results

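The genes of cholesterol and fatty acid synthesis were examined in mouse ovarian surface epithelial cells from tumours with 3 states of p53: homozygous for the R172H mutation, heterozygous for it, or wild-type. The set was defined by gene name and held 31 genes, of which 20 belong to the sterol pathway under SREBP2 and 11 to fatty acid synthesis under SREBP1. Each gene was read from its brightest probe set among those that name a single gene, and 30 of the 31 genes had one (19 sterol and 11 fatty acid genes, out of 18194 genes named in this way). All 30 lay above the filter on dim signals and were among the 10916 genes tested, and none was under the background level of 24.5 in any array. Acat2, a cytosolic thiolase that feeds the mevalonate pathway, had no single-gene probe set and was not analysed here.

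Total RNA of 6 samples was measured on single-colour Affymetrix arrays, 2 arrays in each group. Both homozygous samples came from animals 4 weeks of age, the heterozygous samples from animals of 9 and 12 weeks, and both wild-type samples from animals of 9 weeks, so homozygosity and age cannot be told apart. Every sample title, in all 3 groups, also carries the tag P/K, which the labels do not expand. All samples had a mixed strain background. The cells had been freed with trypsin, grown in medium with serum and insulin, and collected before any passage, so other cells of the ovary or tumour can be among them. For the homozygous samples the titles were followed, since another label entry gives a gene related to p53. The 2 heterozygous samples differ in age, so their spread also holds that difference. For the homozygous and wild-type pairs, nothing in the labels says that the 2 samples came from separate animals. The p-values measure the spread between these samples, which may be technical in those 2 pairs. The number of arrays limits the precision throughout.

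As background, SREBP2 and SREBP1 are membrane-bound transcription factors. When sterols in the endoplasmic reticulum run low, the escort protein SCAP carries them to the Golgi apparatus, where the site-1 and site-2 proteases release the active fragment, and INSIG proteins hold SCAP back when sterols are plentiful. SREBP2 mainly drives the enzymes that turn acetyl-CoA into cholesterol, and SREBP1, itself induced by the oxysterol receptor LXR, mainly drives the enzymes that build and desaturate fatty acids. In mouse liver, wild-type p53 has been reported to raise the cholesterol exporter Abca1 and to restrain SREBP2. In human breast cancer cells, mutant p53 has been reported to raise genes of the mevalonate pathway. In the surface epithelium of the ovary, cholesterol is chiefly a membrane component, whereas the steroid-making granulosa and theca cells also use it as a precursor.

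The p21 gene Cdkn1a, a direct p53 target used here as a check of the labels, had signals of 192 and 111 in the homozygous arrays, 1548 and 1437 in the heterozygous arrays and 2519 and 2646 in the wild-type arrays. It fell 17.7-fold in homozygous against wild-type cells (adjusted p = 0.0136 by limma), a call that ended without wild-type array 1 (0.148), wild-type array 2 (0.133) or either heterozygous array (0.0796 each). The 2 homozygous arrays were the least alike of the 3 pairs. The SD of the log2 difference within a pair, over all tested genes, was 1.30 for the homozygous pair, 0.55 for the heterozygous pair and 0.60 for the wild-type pair. Wild-type array 2 and heterozygous array 1 were the closest of all pairs, at 0.31. Several markers of the cell types that could be present differed between groups. The summed signal of 13 surface epithelium and mesothelium markers was 60315 and 77081 in homozygous, 190588 and 151855 in heterozygous and 169969 and 211808 in wild-type arrays. Of the 13, 12 had a negative homozygous minus wild-type difference and 1 was called lower, beside 54.6% and 2.25% of all tested genes. In homozygous array 1 the epithelial keratin Krt7 stood at 60.5 and the mesothelial marker Aldh1a2 at 1.06, the second of these under background, while the keratin Krt18 stood at 25436 there, the highest of all 6 arrays, with Krt19 at 8282 and mesothelin, Msln, at 2433. No marker of this list was under background in all arrays. The sum of 11 macrophage markers was 294 and 711 in homozygous, 5564 and 5643 in heterozygous and 3207 and 2594 in wild-type arrays. Lyz2, C1qa, C1qc, Ctss and Tyrobp were under background in both homozygous arrays. The sum of 8 endothelial markers was 1911 and 2744 in homozygous, 9083 and 10375 in heterozygous and 10465.5 and 10908 in wild-type arrays. Of these, the 3 that could be tested (Kdr, Icam2 and Esam) were called lower in both comparisons, with a median of -5.22 against wild-type. Over all tested genes 2.25% were called lower against wild-type and 3.22% against heterozygous arrays, and the median against wild-type was -0.09. Most of each endothelial sum came from Esam, with 1791 and 2610 in homozygous, 6836 and 7906 in heterozygous and 7222 and 8168 in wild-type arrays. Tie1 was under background in all 6 arrays and Pecam1 stood between 3.48 and 26.9. Cdh5 stood between 13.1 and 55.8, Tek between 3.61 and 49.7 and Emcn between 7.35 and 28.6. The homozygous values of Pecam1, Cdh5, Tek and Emcn lay within the range of the heterozygous and wild-type arrays. The VEGF receptor gene Kdr had 35.9 and 60.4 in homozygous, 1104 and 1483 in heterozygous and 2469 and 1213 in wild-type arrays, and Icam2 was under background in both homozygous arrays. The part of these cell types in the differences of the synthesis genes was not tested. In mixed samples of this kind, fewer cells of a type and less RNA per cell cannot be told apart.

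Proximal promoters are shown for 6 members that the results turn on: the one gene that passed the test, 3 further sterol genes and the fatty acid genes with the most negative and the most positive difference. Each window runs from 250 bases before the RefSeq transcript start to 50 bases after it, on mouse build GRCm38, printed 5′ to 3′ on the strand of the gene. Capitals mark letters that match, on either strand, the sterol element core CACNCCAC or its longer form TCACNCCAC (which contains it), the NF-Y element CCAAT, the Sp1 element GGGCGG or the E-box CACGTG. Dhcr7 has 3 windows, and the one with the most matches was taken.
Dhcr7 (chr7:143829964-143830263, plus strand): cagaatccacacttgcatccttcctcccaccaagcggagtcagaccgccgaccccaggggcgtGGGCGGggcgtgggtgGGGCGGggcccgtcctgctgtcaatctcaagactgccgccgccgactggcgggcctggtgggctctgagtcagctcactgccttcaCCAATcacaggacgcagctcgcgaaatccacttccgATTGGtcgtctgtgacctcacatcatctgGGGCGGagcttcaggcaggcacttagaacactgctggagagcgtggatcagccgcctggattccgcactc
Hmgcs1 (chr13:119690101-119690400, plus strand): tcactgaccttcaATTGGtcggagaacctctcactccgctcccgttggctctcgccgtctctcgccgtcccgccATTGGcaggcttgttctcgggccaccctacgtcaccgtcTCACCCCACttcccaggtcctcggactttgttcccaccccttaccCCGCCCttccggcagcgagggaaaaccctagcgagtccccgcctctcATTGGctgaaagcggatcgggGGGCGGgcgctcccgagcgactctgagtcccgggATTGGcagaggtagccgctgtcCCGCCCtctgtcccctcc
Nsdhl (chrX:72918271-72918570, plus strand): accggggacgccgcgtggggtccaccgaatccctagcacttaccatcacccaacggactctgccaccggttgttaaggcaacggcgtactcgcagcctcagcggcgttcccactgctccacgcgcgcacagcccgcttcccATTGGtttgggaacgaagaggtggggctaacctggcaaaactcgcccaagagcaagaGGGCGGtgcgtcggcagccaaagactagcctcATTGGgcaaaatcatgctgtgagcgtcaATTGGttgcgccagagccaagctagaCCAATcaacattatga
Insig1 (chr5:28071162-28071461, plus strand): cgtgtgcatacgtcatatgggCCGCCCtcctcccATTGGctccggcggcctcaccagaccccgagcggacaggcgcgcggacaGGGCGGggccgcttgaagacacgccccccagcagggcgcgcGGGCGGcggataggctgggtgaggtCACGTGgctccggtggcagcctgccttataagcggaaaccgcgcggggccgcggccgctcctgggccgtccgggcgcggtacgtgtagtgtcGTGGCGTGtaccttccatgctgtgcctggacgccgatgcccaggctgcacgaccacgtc
Fads2 (chr19:10101454-10101753, minus strand): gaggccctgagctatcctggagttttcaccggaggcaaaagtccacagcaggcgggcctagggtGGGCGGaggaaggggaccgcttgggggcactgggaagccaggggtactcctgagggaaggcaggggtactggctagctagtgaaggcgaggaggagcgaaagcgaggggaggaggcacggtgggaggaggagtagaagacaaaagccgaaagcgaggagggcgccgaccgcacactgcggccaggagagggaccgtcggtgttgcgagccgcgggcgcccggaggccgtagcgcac
Fasn (chr11:120824498-120824797, minus strand): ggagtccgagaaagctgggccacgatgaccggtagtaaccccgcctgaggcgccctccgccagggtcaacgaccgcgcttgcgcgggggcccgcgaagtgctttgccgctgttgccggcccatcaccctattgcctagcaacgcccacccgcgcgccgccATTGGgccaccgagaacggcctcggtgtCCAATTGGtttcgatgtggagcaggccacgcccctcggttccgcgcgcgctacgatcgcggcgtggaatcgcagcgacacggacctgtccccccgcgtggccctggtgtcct

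The windows differ in what they hold. The long sterol element occurred once, in Hmgcs1, as TCACCCCAC starting 137 bases before the transcript start. The shorter core occurred in Insig1 on the opposite strand, 9 bases before the start. The Dhcr7 window held 2 CCAAT and 3 GGGCGG matches, the Nsdhl window 4 and 1, the Fads2 window a single GGGCGG and no CCAAT, and the Fasn window 3 CCAAT matches, of which a pair overlap in the run CCAATTGG. RefSeq windows were found for 24 of the 31 genes, 30 windows in all, with none for Fdps, Fdft1, Sqle, Stard4, Scd1, Scd2 and Fads1. CCAAT was present in 15 of 19 sterol windows and 6 of 11 fatty acid windows, beside 37.4% of all 32851 windows. GGGCGG was present in 16 of 19 sterol windows and 5 of 11 fatty acid windows, beside 35.7% of all windows. The core CACNCCAC was present in 3 of 30 windows (Acat2, Hmgcs1 and Insig1), beside 6.24% of all, and its long form in 1 of 30, beside 1.24%. CACGTG was present in 5 of 30 windows, beside 7.15%. A match describes these letters only.

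In homozygous against wild-type cells 18 of 19 sterol genes and 8 of 11 fatty acid genes had a negative difference, and without homozygous array 2 these counts were 13 of 19 and 4 of 11. Dhcr7, which encodes the last enzyme of the Kandutsch-Russell route to cholesterol, was the one member that passed the test, and it fell 3.75-fold. A further 17 of the 19 sterol genes had a negative difference without passing, and the median over the 19 was -0.67 on the log2 scale, beside -0.09 over all tested genes. Among the 11 fatty acid genes the median was -0.21, the desaturase gene Fads2 had the most negative difference (-1.48) and the synthase gene Fasn the most positive (0.73), neither of them past the threshold. A gene was called where its limma p-value, adjusted by the Benjamini-Hochberg method over all 10916 tested genes, was under 0.05, which 2.67% of tested genes passed (2.25% as lower and 0.412% as higher). A count of 1 lower and 0 higher among 30 members is near this background share. Negative differences were found for 54.6% of all tested genes.

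**Figure D1:**
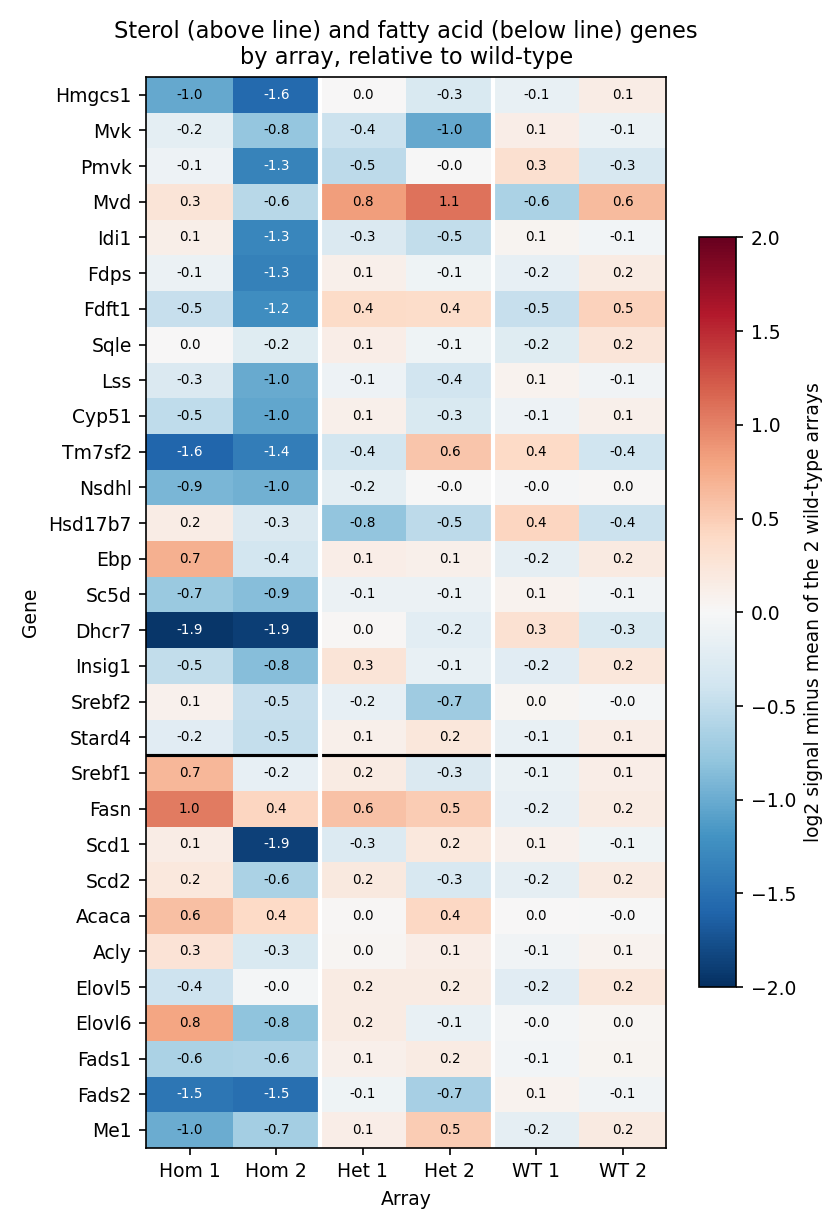
Log2 signal of each of the 30 members minus the mean of the 2 wild-type arrays, with homozygous arrays 1 and 2, heterozygous arrays 1 and 2 and wild-type arrays 1 and 2 as columns from left to right, sterol genes above the line and fatty acid genes below it. Every one of the 19 sterol genes lies below the wild-type mean in homozygous array 2, against 13 of 19 in homozygous array 1.

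The lists were also counted by array. Both homozygous arrays lay below both wild-type arrays for 11 of 19 sterol genes (Hmgcs1, Mvk, Fdft1, Lss, Cyp51, Tm7sf2, Nsdhl, Sc5d, Dhcr7, Insig1 and Stard4) and above both for none of them, where 33.8% of all tested genes lay below and 27.4% above. For the fatty acid genes the counts were 3 of 11 below (Fads1, Fads2 and Me1) and 2 of 11 above (Fasn and Acaca). The level of a list depends on how arrays are scaled. With each array centred on the median of all probe sets, a setting added after seeing the data, the medians were -0.36 for sterol genes, 0.10 for fatty acid genes and 0.22 for all tested genes, with 14 of 19 and 4 of 11 genes below 0. Relative to all tested genes the medians were -0.58 for sterol and -0.12 for fatty acid genes under both scalings. These values must be equal, because centring shifts all genes of an array by the same amount.

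The first enzymes of the sterol pathway make mevalonate and convert it to farnesyl diphosphate. Hmgcs1, the cytosolic HMG-CoA synthase whose promoter holds the long sterol element, had signals of 8277 and 5744 in homozygous, 16950.2 and 13644 in heterozygous and 15237 and 18612 in wild-type arrays. Both homozygous arrays were below all 4 others, the difference was -1.29 ± 0.29 on the log2 scale (2.44-fold lower, SE from limma, n = 2 arrays a group), and the limma adjusted p was 0.0742. All 4 of its probe sets that were bright enough to test were negative, from -1.43 to -1.29. Signals are linear intensities throughout, and single values in parentheses after a gene's signals are log2 differences of homozygous minus wild-type means unless another pair is named.

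The kinases and the decarboxylase that follow were less uniform. Mevalonate kinase, Mvk, had 296 and 198 in homozygous, 251 and 166 in heterozygous and 370.1 and 308 in wild-type arrays (-0.48 against wild-type). Phosphomevalonate kinase, Pmvk, had 731 and 309.8 in homozygous, 541 and 774 in heterozygous and 978 and 624 in wild-type arrays (-0.71). Only homozygous array 2 was below both wild-type arrays for Pmvk, and for Mvk the heterozygous arrays were below the wild-type arrays too. The decarboxylase gene Mvd had 414 and 233 in homozygous, 615 and 733 in heterozygous and 222 and 534 in wild-type arrays (-0.15), where the wild-type pair alone spanned more than the homozygous pair.

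Idi1 and Fdps show a split between the homozygous arrays. Idi1, the isomerase of isopentenyl diphosphate, had 6854 and 2543 in homozygous, 5150.3 and 4506 in heterozygous and 6573 and 6048 in wild-type arrays. Fdps, farnesyl diphosphate synthase, had 3835 and 1633 in homozygous, 4437 and 3901 in heterozygous and 3728 and 4636 in wild-type arrays. For both genes homozygous array 1 was above wild-type array 1 and homozygous array 2 was the lowest of the 6. The mean differences were -0.59 ± 0.49 for Idi1 and -0.73 ± 0.45 for Fdps, with limma adjusted p of 0.453 and 0.322.

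Squalene and lanosterol are formed next. Fdft1, squalene synthase, had 4574 and 2661 in homozygous, 8204 and 8130.4 in heterozygous and 4582 and 8662 in wild-type arrays (-0.85, adjusted p 0.244 by limma). Homozygous array 1 and wild-type array 1 were nearly equal for this gene, so the separation of the pairs is slight there. Sqle, squalene epoxidase, had 3072 and 2572 in homozygous, 3337 and 2870.4 in heterozygous and 2575 and 3605 in wild-type arrays, and its groups overlapped (-0.12). Lss, lanosterol synthase, had 1068 and 649 in homozygous, 1215 and 1002 in heterozygous and 1365 and 1246 in wild-type arrays (-0.65).

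The 7 enzymes from lanosterol to cholesterol had a median of -0.80, with both homozygous arrays below both wild-type arrays for 5 of the 7, beside 33.8% of all tested genes. Dhcr7, 7-dehydrocholesterol reductase, had signals of 622 and 649 in homozygous, 2416 and 2050.2 in heterozygous and 2939 and 1929.7 in wild-type arrays. The 2 homozygous arrays were nearly equal and lay far below the lowest other array. Its log2 difference was -1.91 ± 0.29 against wild-type (adjusted p = 0.0446 by limma) and -1.81 ± 0.29 against heterozygous arrays (adjusted p = 0.0422, 3.50-fold lower). The call against wild-type ended under 11 of 18 alternatives, among them the fits without wild-type array 1 (adjusted p 0.250), without wild-type array 2 (0.155), without either heterozygous array (0.133 each), with a replicate block (0.0899) and with arrays centred on the median of all probe sets (0.0638). It held without homozygous array 1 (-1.88) and without homozygous array 2 (-1.94), but those fits hold no measure of homozygous spread. The difference stayed between -2.21 and -1.60 under all 18 alternatives. A single probe set measured Dhcr7.

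Other enzymes of this section had separated arrays without passing the test. Nsdhl, a sterol dehydrogenase, had 856 and 822 in homozygous, 1399 and 1602 in heterozygous and 1587 and 1625 in wild-type arrays, a difference of -0.94 ± 0.21 (limma adjusted p 0.0748). Sc5d, sterol C5-desaturase, had 1632 and 1519 in homozygous, 2538 and 2517 in heterozygous and 2882 and 2608 in wild-type arrays, a difference of -0.80 ± 0.21 (limma adjusted p 0.0950). In both genes the homozygous pair agreed closely and stood below all 4 other arrays. Tm7sf2, a sterol C14-reductase, had 115 and 131 in homozygous, 265 and 505 in heterozygous and 453 and 261 in wild-type arrays, a difference of -1.49 ± 0.43 (limma adjusted p 0.108). Here the wide spread lay in the heterozygous and wild-type pairs. Cyp51, lanosterol demethylase, had 2756 and 1896 in homozygous, 4194 and 3165 in heterozygous and 3628 and 4197 in wild-type arrays (-0.77). Both homozygous arrays were below all 4 others for Cyp51 too.

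Hsd17b7 and Ebp did not share this pattern. Hsd17b7, a 3-ketosterol reductase, had 911 and 668 in homozygous, 474 and 568 in heterozygous and 1103 and 606 in wild-type arrays (-0.069). Ebp, the sterol isomerase, had 2276 and 1070.0 in homozygous, 1526 and 1480.5 in heterozygous and 1224 and 1572 in wild-type arrays, and was the one sterol gene with a positive difference (0.17 ± 0.41). Its 2 homozygous arrays were the highest and the lowest of the 6.

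Of the sterol regulators and carriers, Insig1, the SREBP2 target that retains SCAP, had 1536 and 1201 in homozygous, 2588 and 1956 in heterozygous and 1856 and 2514 in wild-type arrays (-0.67, adjusted p 0.205 by limma). Stard4, a cytosolic sterol carrier, had 1320.4 and 1109 in homozygous, 1669 and 1814 in heterozygous and 1404 and 1713 in wild-type arrays (-0.36), and 1 of its 3 bright probe sets had a positive difference (0.26). Both homozygous arrays were below all others for these 2 genes. The gene of the factor itself, Srebf2, had 1416 and 969.6 in homozygous, 1184 and 812 in heterozygous and 1362 and 1296 in wild-type arrays, with overlapping groups (-0.18 ± 0.31). These arrays read messenger RNA and not the processed SREBP2 protein.

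**Figure D2:**
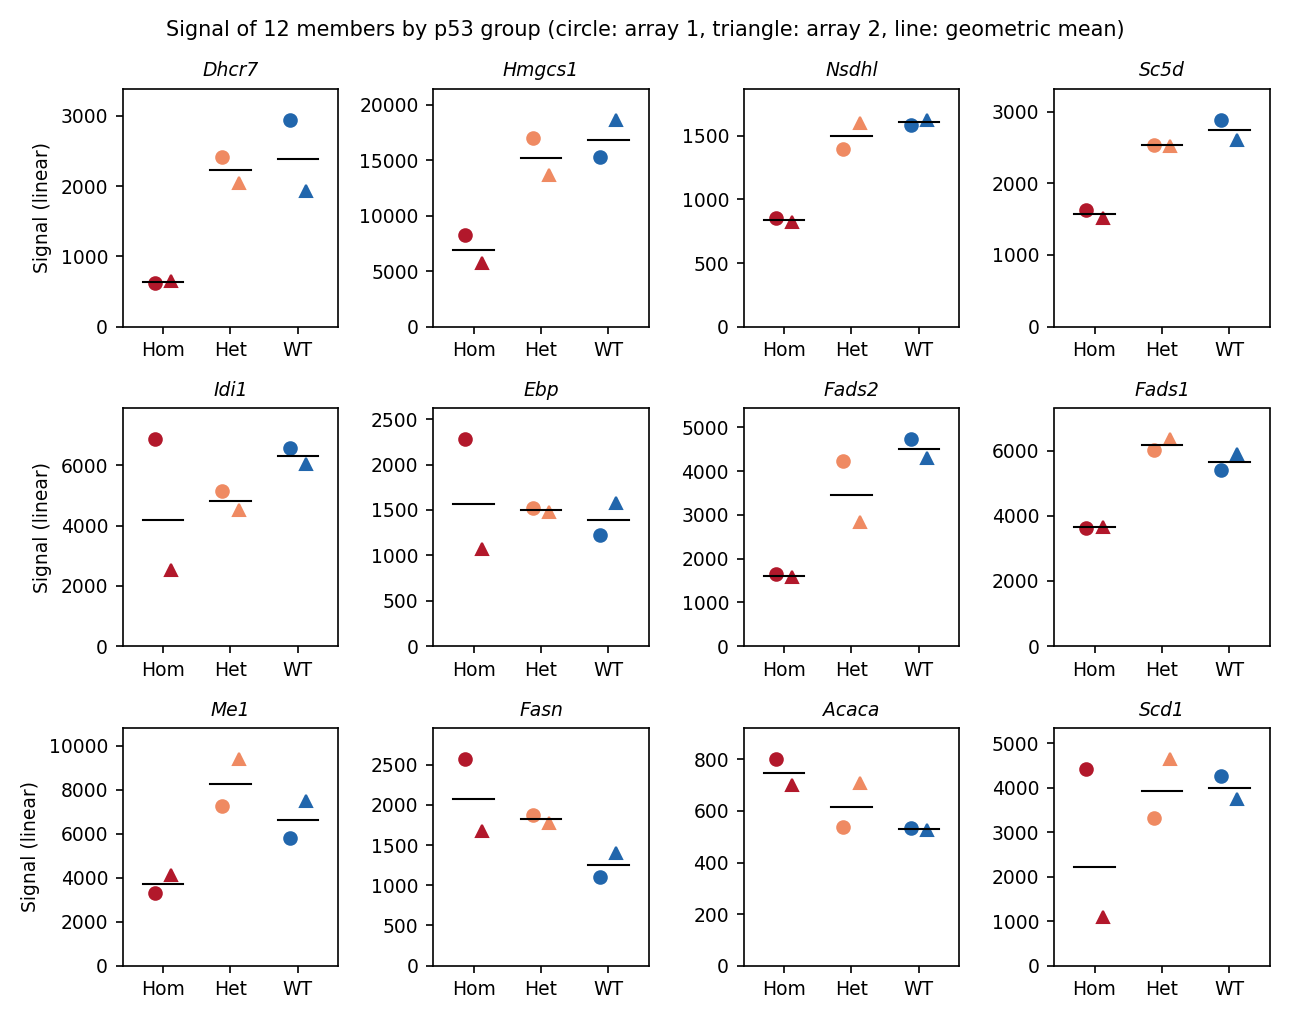
Deposited signal (linear intensity, axis from 0) of 12 members in homozygous, heterozygous and wild-type arrays from left to right, with a circle for array 1, a triangle for array 2 and a line at the geometric mean of the group. Dhcr7 sits at 622 and 649 in the homozygous arrays and at 1929.7 or more in all others, while the homozygous arrays of Idi1, Ebp and Scd1 lie far apart.

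Fatty acid synthesis starts from cytosolic acetyl-CoA and NADPH. Fasn, the fatty acid synthase, had signals of 2569.7 and 1675 in homozygous, 1875 and 1778 in heterozygous and 1107 and 1405 in wild-type arrays. Both homozygous arrays, and both heterozygous arrays, were above the wild-type pair, and the homozygous difference was 0.73 ± 0.30 (limma adjusted p 0.182). Acaca, acetyl-CoA carboxylase, had 802 and 700.2 in homozygous, 537 and 707 in heterozygous and 532 and 527 in wild-type arrays, a difference of 0.50 ± 0.25 (limma adjusted p 0.241). Acly, ATP citrate lyase, had 6807 and 4572 in homozygous, 5758 and 6176 in heterozygous and 5368 and 5901 in wild-type arrays, with overlapping groups (-0.013), and 2 of its 3 bright probe sets had a positive difference. Me1, cytosolic malic enzyme and a source of NADPH, had 3317 and 4147 in homozygous, 7246 and 9403 in heterozygous and 5828 and 7508 in wild-type arrays, a difference of -0.83 ± 0.28 (limma adjusted p 0.133).

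The desaturases of polyunsaturated fatty acids had low signals in both homozygous arrays. Fads2, the delta-6 desaturase, had 1648 and 1582 in homozygous, 4240.4 and 2834 in heterozygous and 4725 and 4311 in wild-type arrays. The homozygous arrays were close together and below all others. Its difference from wild-type was -1.48 ± 0.28 (2.80-fold lower, limma adjusted p 0.0575), and 3 of 3 bright probe sets were negative (-2.01 to -1.48). Fads2 passed the threshold under 4 of 18 alternatives. Among these, the fit without homozygous array 2 (-1.45) holds no measure of homozygous spread. Fads1, the delta-5 desaturase, had 3639 and 3668 in homozygous, 6031 and 6341 in heterozygous and 5414 and 5886 in wild-type arrays, a difference of -0.63 ± 0.21 (limma adjusted p 0.133). Its homozygous arrays were again nearly equal and below all others.

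The stearoyl-CoA desaturases, which make monounsaturated fatty acids, did not separate. Scd1 had 4432 and 1099.9 in homozygous, 3316 and 4648 in heterozygous and 4276 and 3755 in wild-type arrays (-0.86 ± 0.67), so the homozygous arrays differed 4.03-fold from each other. Scd2 had 22196 and 12317 in homozygous, 21902 and 15289 in heterozygous and 16844 and 21688 in wild-type arrays (-0.21), and 1 of its 3 bright probe sets was positive. The elongase gene Elovl6 had 1306 and 432 in homozygous, 842 and 683 in heterozygous and 739 and 772 in wild-type arrays (-0.0084), with its homozygous arrays on either side of the rest. Elovl5, the elongase of polyunsaturated chains, had 5479 and 7129.6 in homozygous, 8154 and 8177 in heterozygous and 6227 and 8559 in wild-type arrays (-0.22), the one member for which only homozygous array 1 was below both wild-type arrays. Srebf1 had 2561 and 1452 in homozygous, 1821 and 1331 in heterozygous and 1481 and 1772 in wild-type arrays, with overlapping groups (0.25 ± 0.36).

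**Figure D3:**
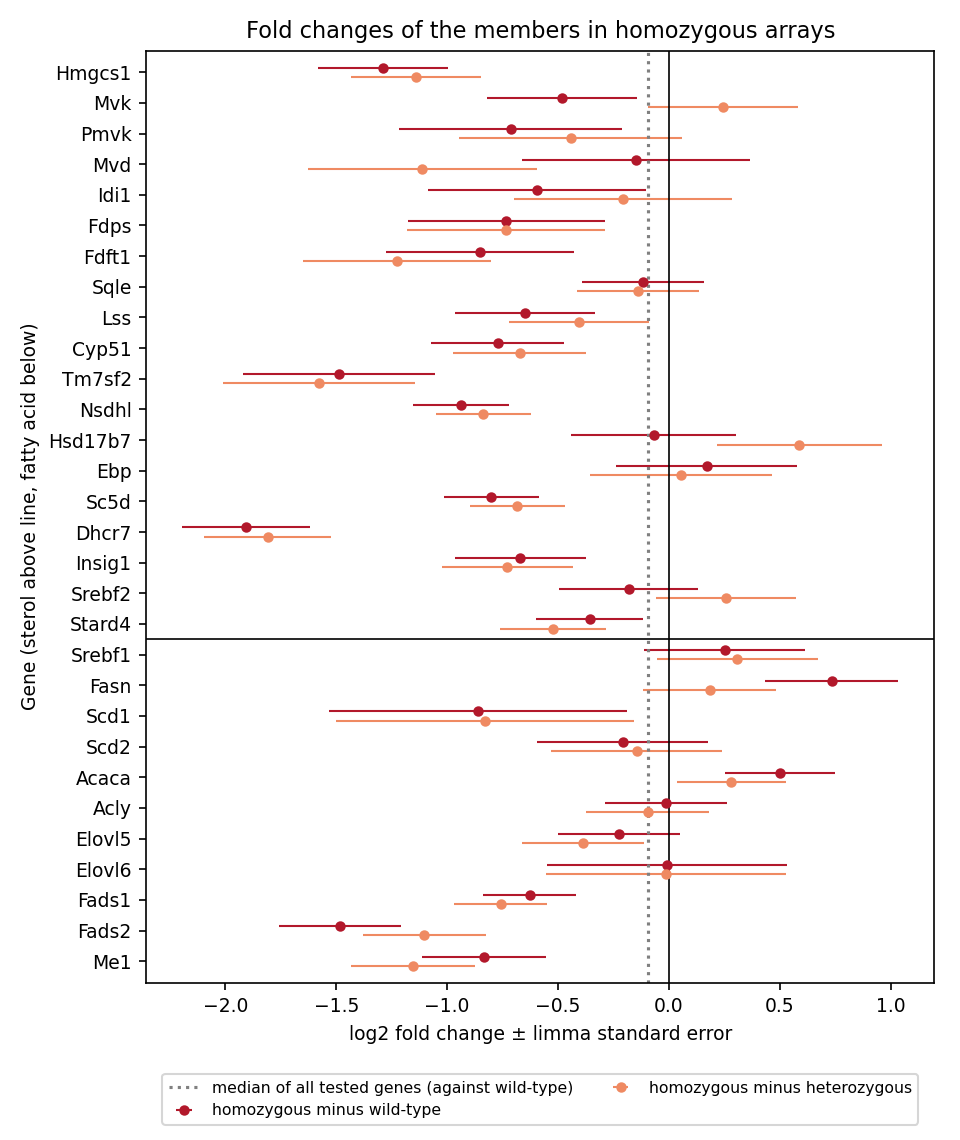
Log2 fold change of each member with its limma standard error, for homozygous minus wild-type arrays (red) and homozygous minus heterozygous arrays (orange), with a dotted line at the median of all tested genes in homozygous minus wild-type (-0.09). Dhcr7 (-1.91 and -1.81) is the one member called in either comparison, and Fasn (0.73) has the most positive difference from wild-type.

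The 2 homozygous arrays gave different accounts of the pathway. Against the wild-type mean, the sterol median was -0.23 in homozygous array 1 and -0.97 in homozygous array 2, with 13 of 19 and 19 of 19 genes below 0. The fatty acid median was 0.22 in array 1 and -0.62 in array 2, with 4 of 11 and 9 of 11 genes below 0. Over all tested genes the medians were -0.11 and -0.04, with 54.9% and 52.4% of genes below 0. The sign of the fatty acid median thus rests on which homozygous array is used.

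Most members were lower in homozygous array 2 than in array 1. This held for 17 of 19 sterol genes and 8 of 11 fatty acid genes, beside 47.3% of all tested genes, and the median of array 2 minus array 1 was -0.54 for sterol, -0.57 for fatty acid and 0.04 for all tested genes. Array 2 was below all 5 other arrays for 18 of 30 members, beside 16.1% of all tested genes. Array 1 was below all 5 others for 5 of 30 members (Tm7sf2, Dhcr7, Elovl5, Fads1 and Me1), beside 35.6%. Only array 2 lay below both wild-type arrays for 11 members (Pmvk, Idi1, Fdps, Sqle, Ebp, Srebf2, Srebf1, Scd1, Scd2, Acly and Elovl6), beside 8.67% of all tested genes. The gap exceeded 2-fold for Pmvk, Idi1, Fdps, Ebp, Scd1 and Elovl6, that is 6 of 30, beside 6.31%. These genes come from both the sterol and the fatty acid lists.

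A second set of members was low in both homozygous arrays. Both lay below all 4 other arrays for 12 of 30 members, beside 28.9% of all tested genes: Hmgcs1, Fdft1, Cyp51, Tm7sf2, Nsdhl, Sc5d, Dhcr7, Insig1, Stard4, Fads1, Fads2 and Me1. Both lay above all 4 others for 0 of 30, beside 23.4%. By pathway section, the 6 mevalonate enzymes had medians of -0.11 in array 1 and -1.32 in array 2, whereas the 7 enzymes after lanosterol had -0.75 and -0.97. The desaturases and elongases, 6 genes, had -0.13 and -0.72, and the 4 genes Acly, Acaca, Fasn and Me1 had 0.44 and 0.05. Marker lists of other cells also differed between these 2 arrays: 7 mesenchymal markers summed to 22850 in array 1 and 88065 in array 2, 11 granulosa and theca markers to 788 and 6434, and the surface epithelial list to 60315 and 77081. Most of the 6434 came from Inhbb (3662) and Inhba (1247). In the other 4 arrays the granulosa and theca sums ran from 5128 to 9853. The mesenchymal sums there ran from 45413 to 65341 and the surface epithelial sums from 151855 to 211808. Amh and Cyp17a1 were under background in both homozygous arrays. The part of these cell types in the gap between the homozygous arrays was not tested. The 3′ to 5′ difference of the actin control was 0.59 in array 1 and 0.39 in array 2 on the log2 scale, against 0.66 to 0.96 in the other 4 arrays. That of the Gapdh control was -0.177 in array 1 and -0.117 in array 2, against -0.1265 to 0.0071 in the other 4 arrays.

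**Figure D4:**
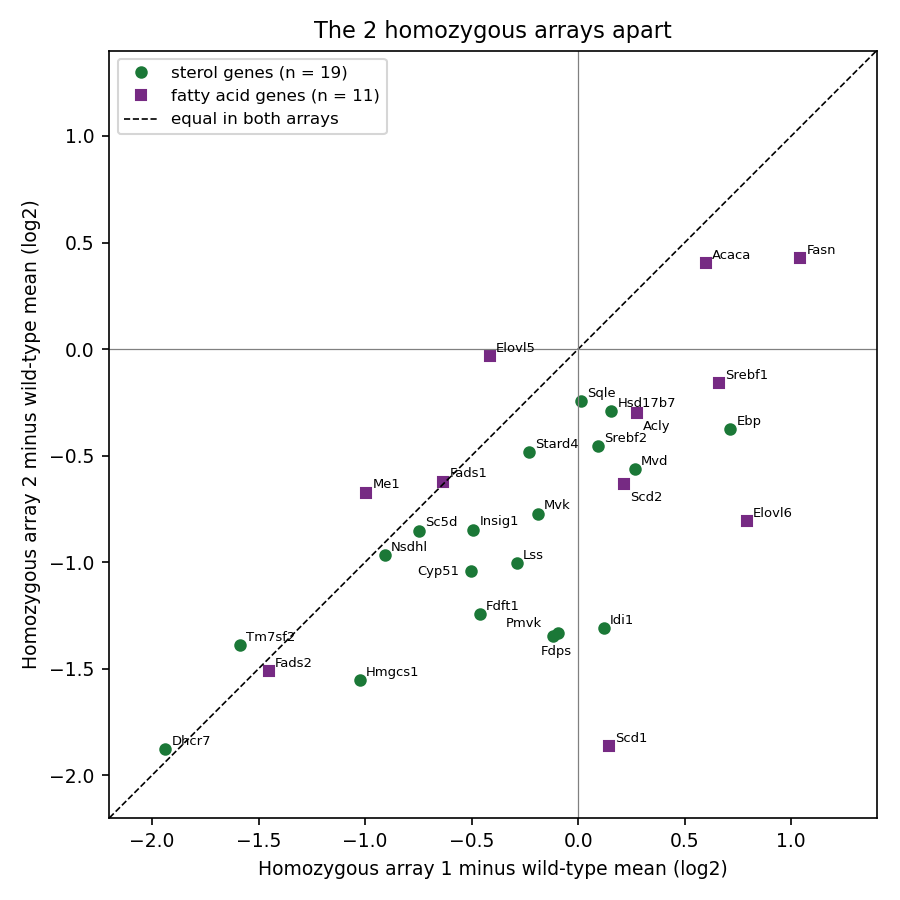
Log2 signal of homozygous array 1 (x axis) and homozygous array 2 (y axis), each minus the mean of the 2 wild-type arrays, for 19 sterol genes (green circles) and 11 fatty acid genes (purple squares), with a dashed line where both arrays are equal. Most points lie below the line, Dhcr7, Fads2, Nsdhl and Fads1 lie on or near it, and Scd1, Elovl6, Idi1, Fdps and Pmvk lie far under it.

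Sterol genes were set against fatty acid genes as the difference of the medians. This was -0.46 for homozygous minus wild-type, -0.53 for homozygous minus heterozygous and -0.18 for heterozygous minus wild-type. The sterol median was below the fatty acid median each time, but these comparisons share arrays and are not independent. For each homozygous array alone against the wild-type mean the difference of medians was -0.45 in array 1 and -0.34 in array 2. The difference of medians does not change when a constant is added to an array. With the mean of all probe sets of a gene in place of the brightest one, it was -0.061 for homozygous minus heterozygous. Within the fatty acid list Fads1, Fads2 and Me1 had differences of -0.63, -1.48 and -0.83 from wild-type, and the remaining genes ranged from -0.86 (Scd1) to 0.73 (Fasn). No test was made of the lists.

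Against heterozygous cells, which carry a wild-type and a mutant allele, the homozygous cells gave a similar set of values, from the same homozygous arrays. The sterol median was -0.67 (15 of 19 below 0) and the fatty acid median -0.15 (8 of 11 below 0), beside -0.08 and 54.3% below 0 over all tested genes. Dhcr7 was again the one member called, where limma called 4.09% of all tested genes (3.22% lower and 0.87% higher). Arrays did not overlap and were lower in homozygous cells for 11 of 19 sterol and 4 of 11 fatty acid genes, beside 34.2% of all tested genes, and were higher for 1 member, Hsd17b7, beside 28.2%. Fdft1 (-1.23), Me1 (-1.15 ± 0.28, limma adjusted p 0.0775) and Mvd (-1.11) had more negative differences here than against wild-type, and Fasn (0.18) a smaller positive one. Each of the 3 had a higher mean in heterozygous than in wild-type cells, as did Fasn. The Dhcr7 call against heterozygous cells ended without heterozygous array 1 (adjusted p 0.175), without heterozygous array 2 (0.277) and without either wild-type array (0.101 each). Against heterozygous cells Me1 (-1.32) also passed the threshold without homozygous array 2, and Scd1 (-1.84) without homozygous array 1. Those fits hold no measure of homozygous spread.

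Median differences between heterozygous and wild-type cells were small in these genes. The sterol median was -0.10 (11 of 19 below 0) and the fatty acid median 0.08 (4 of 11 below 0), beside a median of 0.0046 and 49.2% below 0 over all tested genes. By limma no gene was called in this comparison, member or not, and 71 of 10916 genes (0.65%) had an unadjusted p under 0.05, none of them a member. The spread in this fit is pooled over the 3 groups. Mean variance was 0.88 for the homozygous pair, against 0.15 for the heterozygous and 0.18 for the wild-type pair. The homozygous arrays thus widen the errors of this comparison. Both heterozygous arrays were below both wild-type arrays for 6 sterol genes and 1 fatty acid gene, beside 12.8% of all tested genes, and above for 1 sterol gene (Mvd) and 3 fatty acid genes (Fasn, Acaca and Fads1), beside 13.2%. The widest differences were those of Mvd (0.96), Mvk (-0.72), Hsd17b7 (-0.66) and Fasn (0.55). Dhcr7 differed by -0.10 and Hmgcs1 by -0.15. A p-value that misses the threshold does not show that the groups are alike.

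Further genes of sterol and fatty acid metabolism were taken from lists drawn up by function, with earlier results of these data known. Of these genes, 3 were called lower in homozygous cells in both comparisons. Over all tested genes 2.25% were called lower against wild-type and 3.22% against heterozygous cells. Abca1, the transporter that exports cholesterol to apolipoproteins and a target of LXR, had signals of 216 and 202 in homozygous, 934 and 754 in heterozygous and 874 and 739.9 in wild-type arrays. It fell 3.85-fold against wild-type (log2 -1.94 ± 0.24, limma adjusted p 0.0317) and 4.02-fold against heterozygous cells (limma adjusted p 0.0291). With the mean of all its probe sets the difference from wild-type was -1.21 and was not called (adjusted p 0.111). Lpin1, a phosphatidate phosphatase of triglyceride synthesis, had 308 and 202 in homozygous, 961 and 1174 in heterozygous and 1034 and 925 in wild-type arrays, and fell 3.92-fold against wild-type (limma adjusted p 0.0446). Acss2, which makes cytosolic acetyl-CoA from acetate, had 116 and 153 in homozygous, 482 and 589 in heterozygous and 440.5 and 386 in wild-type arrays, and fell 3.09-fold against wild-type (limma adjusted p 0.0496). In all 3 genes both homozygous arrays lay far below the other 4. The calls against wild-type ended under 10 of 18 alternatives for Abca1, 12 of 18 for Lpin1 and 12 of 17 for Acss2. Like that of Dhcr7, these calls against wild-type ended without either wild-type array (adjusted p 0.156 to 0.280) and without either heterozygous array (0.109 to 0.137), and that of Acss2 also ended without homozygous array 1 (0.0562). The calls of these 3 genes against heterozygous cells each ended under 9 alternatives, among them the fits without heterozygous array 1 (limma adjusted p 0.171 each), without heterozygous array 2 (0.219 to 0.277), without either wild-type array (0.0952 to 0.110) and with the replicate block (0.0655 to 0.0756).

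Counts for these lists, homozygous against wild-type, were as follows. Of 5 tested genes of SREBP processing and LXR action, 0 were called and 4 were below 0 (median -1.005). Of 8 other sterol and isoprenoid enzymes, 0 were called and 5 were below 0 (median -0.38). Among 9 genes of cholesterol uptake, storage and efflux, Abca1 was called and 8 were below 0 (median -0.51). Among 17 other genes of fatty acid and triglyceride synthesis, Lpin1 and Acss2 were called and 14 were below 0 (median -0.70). Of 9 genes of fatty acid oxidation, 0 were called and 7 were below 0 (median -0.61). None of these genes was called higher. Over all tested genes 2.25% were called lower and 0.412% higher, 54.6% were below 0 and the median was -0.09.

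Genes of the SREBP machinery had differences in both directions and did not pass the test. Scap had 1180.5 and 2015 in homozygous, 3177 and 3851 in heterozygous and 2962 and 3659 in wild-type arrays (-1.09 ± 0.34, limma adjusted p 0.118). Mbtps2, the site-2 protease, had 2589 and 2281 in homozygous, 1774 and 2108 in heterozygous and 1134 and 1769 in wild-type arrays (0.78 ± 0.30). Scap was thus below and Mbtps2 above the other 4 arrays in both homozygous arrays. Insig2 differed by -1.005 on the log2 scale. Mylip, an LXR target that degrades lipoprotein receptors, had 80.9 and 59.2 in homozygous, 234 and 525 in heterozygous and 377 and 285 in wild-type arrays (-2.25 ± 0.45, limma adjusted p 0.0654).

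Among sterol enzymes and carriers outside the member list, Msmo1, the C4-methyl sterol oxidase, differed by -0.79 and Aacs, acetoacetyl-CoA synthetase, by -0.71 ± 0.21. Lbr, a sterol C14-reductase of the nuclear envelope, had 8719.5 and 5817 in homozygous, 4655 and 2457 in heterozygous and 2405 and 5025 in wild-type arrays (1.03). Tmem97, a sterol-responsive membrane protein that binds Npc1, had 2157 and 1136 in homozygous, 904 and 856 in heterozygous and 669.5 and 851 in wild-type arrays (1.05 ± 0.37). Both were above all 4 other arrays in both homozygous arrays, unlike Tm7sf2, the other C14-reductase gene. The lysosomal cholesterol carrier Npc1 had 175 and 268 in homozygous, 536 and 528 in heterozygous and 731 and 443 in wild-type arrays (-1.39 ± 0.36, limma adjusted p 0.0900). Npc2 differed by -0.51 and the lipoprotein receptor Scarb1 by -1.40.

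**Figure D5:**
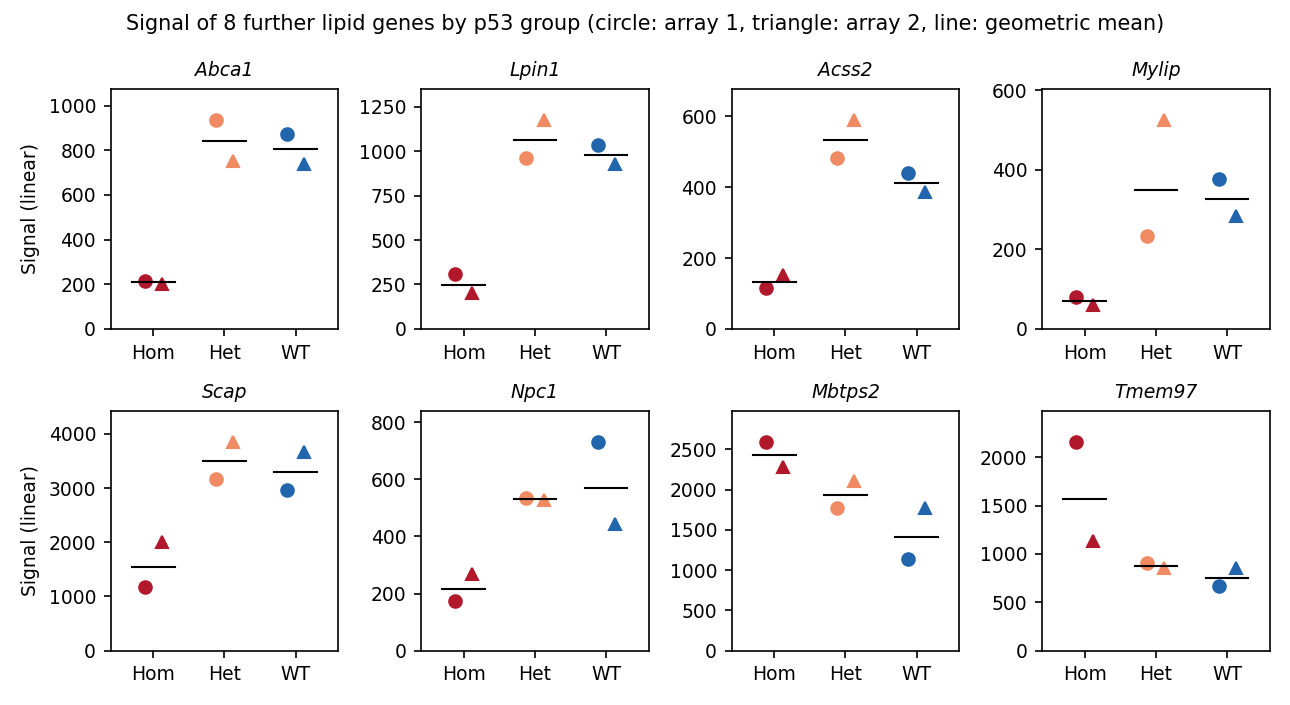
Deposited signal (linear intensity, axis from 0) of 8 genes outside the member list in homozygous, heterozygous and wild-type arrays from left to right, with a circle for array 1, a triangle for array 2 and a line at the geometric mean of the group. Abca1, Lpin1 and Acss2 are the 3 that were called, and Mbtps2 and Tmem97 are higher in both homozygous arrays than in the other 4.

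Some of these genes differed widely between the homozygous arrays. Apoe, an apolipoprotein made by macrophages among other cells, had 43.5 and 818 in homozygous, 3184 and 9882 in heterozygous and 3106 and 3312 in wild-type arrays (-4.09 ± 1.41). Mlxipl, the carbohydrate-responsive factor ChREBP, had 10.1 and 109 in homozygous, 235 and 705 in heterozygous and 239.6 and 307 in wild-type arrays (-3.03 ± 1.19), with the first homozygous value under background. The elongase gene Elovl7 had 336 and 13.1 in homozygous, 223 and 221 in heterozygous and 633 and 157 in wild-type arrays, with the value of homozygous array 2 under background. Its difference from the wild-type mean was 0.09 in homozygous array 1 and -4.60 in homozygous array 2. The macrophage marker sums of 294 and 711 in homozygous against 3207 and 2594 in wild-type arrays stand beside the Abca1 and Apoe differences, and the part of macrophages in them was not tested. The adipocyte markers Adipoq, Lep and Cidec, 3 of the 6 measured, were under background in all 6 arrays, while the sum of the 6 was 7809 and 22659 in homozygous, 17604 and 6092 in heterozygous and 11736 and 5566 in wild-type arrays. Nearly all of that sum was the lipoprotein lipase gene Lpl, which other cells also express, with 7734 and 22580.0 in homozygous, 17537 and 6014 in heterozygous and 11663 and 5499 in wild-type arrays. Fabp4 and Retn stood between 9.05 and 54.8. Smaller differences, none called with all arrays, were those of the dehydratase gene Hacd3 (-1.13), the citrate carrier Slc25a1 (-1.08) and the oxidation genes Cpt2 (-1.13), Hadhb (-0.75), Slc25a20 (-0.74) and Acadm (-0.64).

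Several of these genes passed the limma threshold against wild-type when 1 homozygous array was left out. Such a fit holds no homozygous spread and takes its spread from the heterozygous and wild-type pairs. The SD of the log2 difference was 0.55 and 0.60 for those pairs, against 1.30 for the homozygous pair. The log2 differences are therefore given without p-values. Without homozygous array 2 they were -6.20 for Apoe, -4.74 for Mlxipl, -2.02 for Mylip, -1.70 for Npc1 and -1.55 for Hacd3. In the same fit Scarb1 was at -1.54, Scap at -1.48, Cpt2 at -1.40, Slc25a20 at -1.07 and Tmem97 at 1.52. The member Fads2 was at -1.45 there. Without homozygous array 1, Elovl7 was at -4.60 and the member Scd1 at -1.87. In that fit and in the one without homozygous array 2 the call counts over all tested genes were 673 and 2663, against 291 with all arrays.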

How the data were processed

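Messenger RNA was measured on 6 Affymetrix arrays, 2 in each of 3 groups taken from the sample titles. The deposited values are linear probe set intensities for 45101 probe sets, made by the authors from total RNA labelled with biotin (per the labels). RMA is the tool given in the submitters' processing notes, but the values have the form of scaled MAS 5.0 signals: they are linear, their distributions differ between arrays, and each array has the same trimmed mean of 499.8 (over the middle 96% of values). Array medians ranged from 41.1 to 60.6. Gene names came from the platform annotation of the probe sets (34958 name 1 gene, 932 several and 9211 none), and symbols were updated by Entrez identifier for 34754. For each gene the brightest of its probe sets by mean log2 intensity was used, and genes at or above the 40th percentile of that mean (a geometric mean of at least 60.2) were tested. Background was set at 24.5, the maximum over 18 values of bacterial Trpn control probe sets.

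Log2 intensities of all 6 arrays were fitted with 3 group means in limma 3.58.1 (R 4.3.3), with empirical Bayes moderation (3 residual and 2.26 prior degrees of freedom) and Benjamini-Hochberg adjustment over 10916 genes. The procedure was tested on simulated data in which all groups had the same spread for a gene. That test does not cover the wider spread of the homozygous pair. The members and the gene lists were chosen with earlier results of these data known, so lists are described by counts and medians without a test. Named beside the 30 measured members are the other pathway genes that were called, up to 4 further genes per list with the largest differences, and Cdkn1a. Alternatives changed the filter, the scaling, the treatment of dim values, the choice of probe set, the groups fitted, the spread, a replicate block and the arrays included. Figures were drawn with matplotlib 3.10.9 in Python 3.11.15.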

Additional observations from a re-analysis of the deposited data

How the results depend on the processing

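The list medians of homozygous minus wild-type arrays depended most on the homozygous arrays: with 1 array left out at a time they ranged from -0.97 to -0.23 for sterol and from -0.62 to 0.22 for fatty acid genes. For homozygous minus heterozygous arrays the fatty acid median ranged from -0.57 to 0.19 and sterol minus fatty acid from -0.59 to -0.31, which was -0.061 when each gene's probe sets were averaged and -0.44 when the closest arrays, wild-type array 2 and heterozygous array 1, were both left out. For heterozygous minus wild-type the sterol median ranged from -0.16 to 0.0094 with 1 array left out, and sterol minus fatty acid from -0.29 to -0.12. Without both close arrays these were -0.16 and -0.36, and the sterol median was -0.016 with arrays centred on the median of all probe sets, a setting chosen after seeing the data.

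The number of genes called by limma in homozygous minus wild-type was 291, and it was 0 with no filter, 686 with values raised to background, 662 with an offset of 16, 190 with probe sets averaged, 0 with only the 2 groups compared, 0 with the replicate block, 0 without both close arrays and 0 to 2663 with 1 array left out. Where it was 0, between 1225 and 3359 genes had an unadjusted p under 0.05. In homozygous minus heterozygous it was 446, and under the same settings 17, 809, 767, 281, 9, 19, 0 and 0 to 2841, and 293 with the spread free to differ between groups; at 0 calls, 1359 to 2361 genes had an unadjusted p under 0.05. The counts of 0 with 1 array left out came without a wild-type or heterozygous array, and the cause was not tested. A lone array left in a group was assumed to vary like the other groups. Heterozygous minus wild-type had 0 calls under all 18 alternatives, with 26 to 593 genes at an unadjusted p under 0.05. Of 90 member results, 6 changed their call under some alternative. A reversal was counted only where the main or the alternative fit made a call, and there were 0. Signs of uncalled results did change. Homozygous minus wild-type ranged from -1.31 to 0.12 for Idi1, from -0.88 to 0.79 for Elovl6 and from -0.37 to 0.71 for Ebp. Replicate numbers did not pair the samples: deviations of same-numbered arrays correlated at 0.155 (homozygous with heterozygous), -0.0997 (homozygous with wild-type) and -0.303 (heterozygous with wild-type). All 30 members lay above background in all 6 arrays, and dim genes of other lists are uncertain.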
